A study of Mus musculus with 15 samples.

Results

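Expression of 10 genes of the blood-brain barrier was followed in the hippocampus of male C57BL/6J mice during the extinction of contextual fear. The genes were chosen by name, 5 for the junctions and surface of brain endothelial cells (Cldn5, Ocln, Cdh5, Pecam1 and Esam) and 5 for their transporters (Abcb1a, Abcg2, Slco1c1, Slco1a4 and Slc2a1). Of these, 9 were found under their own names among the 41174 non-control probes of the array, and Esam was found through its transcript accession under the older name Esam1. Together they had 14 probes. After dim probes were left out 13 probes remained, and all 10 genes were among the 26117 genes compared. The 10 genes were drawn up with the differences of both extinction groups from control in view, so those differences are given as a description and without p-values. In both extinction groups the mean of every one of the 10 genes was below that of control. Cldn5, Abcb1a and Slco1c1 were called lower in ELF than in control, a call made for 0.651% of all genes, and Cldn5 was called lower in E1 than in control (0.0536% of all genes). No member was called between ELF and E1 without slide in the model, and the calls depended on the slides and on single arrays. The number of calls over all genes depended on them too.

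Each of the 3 groups held 5 mice, all male and of the same inbred strain, with 1 array of total hippocampal RNA per mouse. ELF mice had received a footshock in a box and were then returned to it daily without the shock; they were sampled 1 h after trial 5, the trial at which freezing had dropped ("extinction trial low freezing"). E1 mice had received the same shock and were sampled 1 h after extinction trial 1, when freezing was still high. Control mice never received the shock. The design text says that they were placed in the box, whereas their sample names call them naive, and no time between handling and sampling is given for them. The age of the mice is not stated in the labels.

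Brain capillaries are lined by endothelial cells that are sealed to each other by tight junctions, so that blood-borne molecules cross mainly through the cells. Tight junctions are built from claudins and occludin and rest on adherens junctions made by a cadherin. Because the paracellular route is closed, nutrients enter through carrier proteins, and lipophilic drugs that diffuse into the cell are pumped back into the blood by ATP-driven efflux pumps. The hippocampus is vascularised like the rest of the forebrain, and these endothelial cells make up a small part of its cells.

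Cldn5, Abcb1a and Slco1c1 were the members that passed the test in the comparison of ELF with control, and their promoters are shown to place the genes and their sequence context. The RefSeq windows of 300 bases run from upstream of the annotated start to just past it and are printed 5′ to 3′ on the gene's strand, in build GRCm38.p6. Capitals mark matches, on either strand, to any of 7 short motifs that were searched: GGAAGT and CCGGAA (ETS factors), ATTGTT (SOX), GGGCGG (SP), GTAAACA (FOX), CTTTGA (TCF/LEF) and CACGTG (E-box). No 2 motif matches overlap in these 3 windows.
Cldn5, chr16:18776597-18776896, plus strand: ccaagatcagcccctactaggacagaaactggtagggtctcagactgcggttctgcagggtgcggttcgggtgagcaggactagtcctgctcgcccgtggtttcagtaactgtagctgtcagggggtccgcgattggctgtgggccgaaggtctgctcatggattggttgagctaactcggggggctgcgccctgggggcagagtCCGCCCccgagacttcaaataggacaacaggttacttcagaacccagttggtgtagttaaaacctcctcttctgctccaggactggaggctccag
Abcb1a, chr5:8566841-8567140, plus strand: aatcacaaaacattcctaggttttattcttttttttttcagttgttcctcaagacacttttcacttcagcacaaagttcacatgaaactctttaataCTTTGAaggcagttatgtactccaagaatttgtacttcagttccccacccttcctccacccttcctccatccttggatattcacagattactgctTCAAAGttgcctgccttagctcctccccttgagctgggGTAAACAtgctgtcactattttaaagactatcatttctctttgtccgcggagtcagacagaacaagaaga
Slco1c1, chr6:141524104-141524403, plus strand: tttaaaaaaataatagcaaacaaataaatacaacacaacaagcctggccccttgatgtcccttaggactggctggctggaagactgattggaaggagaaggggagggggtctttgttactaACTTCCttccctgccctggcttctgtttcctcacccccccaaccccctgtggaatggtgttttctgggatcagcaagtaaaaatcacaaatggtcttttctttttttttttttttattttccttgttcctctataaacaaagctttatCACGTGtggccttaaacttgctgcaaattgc
The 3 windows differ in base composition, with a GC content of 58.3% for Cldn5, 40.3% for Abcb1a and 42% for Slco1c1, against a median of 52.7% over 32851 windows of the same length. Cldn5 held 1 GGGCGG match, on the minus strand at position -45 from the start, a motif held by 35.7% of all windows. Abcb1a held GTAAACA at -20 (3.65% of windows) and CTTTGA at -153 and, on the minus strand, at -58 (16% of windows). Slco1c1 held GGAAGT on the minus strand at -129 (23.8% of windows) and CACGTG at 19 bases past the start (7.15% of windows). No motif was found in all 3 windows. RefSeq windows were matched for 7 of the 10 genes. Among the others, Slc2a1 held 2 GGGCGG matches and had 65.3% GC, and Slco1a4 held 1 ATTGTT match (10.7% of windows) and had 40.7% GC. These matches describe letters in the sequence, and nothing about binding is read from them.

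Values are log2 intensities relative to the 75th percentile of the same array, so 0 is the level of that percentile and a difference of -1 is a halving. That percentile lay between 1445 and 2929 intensity units, and between 83.5% and 97.2% of the non-control spots per array exceeded background clearly. Arrays lay on 4 slides: slide 1 held control 1 to 4, slide 2 held control 5 and E1 1 to 3, slide 3 held E1 4 and 5 and ELF 3 and 4, and slide 4 held ELF 1, 2 and 5. ELF and control therefore shared no slide, while E1 shared slide 2 with control and slide 3 with ELF. Control 1 was the highest of the 15 arrays for 9 of the 10 genes (Ocln was highest on ELF 2), so medians are also given without it. ELF 3 stood apart in choroid plexus markers: Ttr, a carrier protein made in large amounts by choroid plexus epithelium, read -1.81 there, against 3.35 to 4.02 on the other ELF arrays. All 12 neuronal and all 12 astrocyte markers, and 25 of 26 endothelial markers besides the members, passed the filter on dim probes. Of all probes 38458 of 41174 passed it, so nothing about the tissue is read from these counts. In whole tissue, fewer cells of a type and less RNA per cell cannot be told apart.

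Cldn5 encodes claudin-5, the main claudin of brain endothelial tight junctions, and its probe lies at chr16:18327686-18327745 (build mm7, plus strand). It read 0.66, 0.99, 1.04, 1.12 and 0.77 on ELF arrays 1 to 5, and 1.03, 0.75, 0.65, 0.58 and 0.58 on E1 arrays 1 to 5. The control arrays 1 to 5 read 2.13, 1.50, 1.68, 1.53 and 1.42. Every ELF and every E1 array lay below every control array, while the ELF and E1 ranges overlapped. The mean of Cldn5 was lower in both extinction groups. Its difference from control was -0.74 (SE 0.14) in ELF and -0.94 (SE 0.14) in E1, or 40.1% and 47.7% lower on the linear scale. Without slide in the model Cldn5 was the one member called in both comparisons. With slide as a fixed block the differences were -0.12 and -0.62, and neither was called. Over all genes that fit called 23 higher and 62 lower in ELF, and 1 and 3 in E1. With slide as a random block neither was called, nor was any other gene. The call depended on single arrays: it was lost in ELF without ELF 1, ELF 5 or any 1 of control 1 to 4 (-0.78 to -0.62), and in E1 without E1 3, E1 4, E1 5, control 2 or control 3 (-0.97 to -0.90). These fits also called fewer genes in all than the fit of all arrays. Between ELF and control it was 0 of 26117 without control 2 or control 3.

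Ocln encodes occludin, a membrane protein of tight junctions, measured at chr13:97585859-97585918 (minus strand). It read -2.56, -1.97, -2.56, -2.37 and -2.30 on the ELF arrays and -2.44, -2.35, -2.63, -2.18 and -2.32 on the E1 arrays. Control arrays read -2.24, -2.13, -2.03, -2.35 and -2.26. All 3 groups overlapped, and the differences from control were the smallest of the junction genes in ELF, at -0.15 (SE 0.12), with -0.18 (SE 0.12) in E1. Ocln passed the test in neither comparison.

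Cdh5 encodes VE-cadherin, the adhesion protein of endothelial adherens junctions, measured at chr8:102744763-102744822 (plus strand). Its values were -2.87, -2.07, -3.11, -2.96 and -2.55 on the ELF arrays and -2.33, -2.37, -2.56, -2.57 and -2.41 on the E1 arrays. On the control arrays they were -1.30, -2.11, -1.87, -2.14 and -2.35. The SD was 0.41 between the ELF arrays, 0.11 between the E1 arrays and 0.40 between the control arrays. ELF 2 alone lay among the control arrays, and the other 4 ELF arrays were below the lowest of them. The difference from control was -0.76 (SE 0.20) in ELF, close to that of Cldn5, but it did not pass the test. It did when ELF 2 (-0.92), ELF 4 (-0.69) or control 5 (-0.86) was left out. Those fits called 106, 4404 and 1612 genes higher and 103, 719 and 498 lower, against 378 and 170 with all arrays. In E1 the difference was -0.49 (SE 0.20), also not called.

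Pecam1 encodes CD31, an adhesion protein at endothelial cell borders. Its probe crosses a splice site at chr11:106790116-106791969 (minus strand) and was printed on 10 spots of each array. The mean over those spots was -3.61, -3.49, -3.55, -3.85 and -3.46 on the ELF arrays and -3.31, -3.40, -3.47, -3.36 and -3.40 on the E1 arrays. It was -2.96, -3.48, -3.34, -3.57 and -3.17 on the control arrays. Spots of the same array had an SD of 0.054 to 0.219 (median 0.097), against 0.157, 0.059 and 0.244 between the ELF, E1 and control arrays. The groups overlapped, with differences from control of -0.29 (SE 0.11) in ELF and -0.08 (SE 0.11) in E1, and neither passed the test. Without control 1 the E1 difference was 0.0013, of opposite sign.

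Esam encodes an endothelial cell-selective adhesion molecule of tight junctions, measured at chr9:37466577-37466636 (plus strand). It read -1.77, -1.62, -1.68, -1.76 and -1.78 on the ELF arrays and -1.50, -1.45, -1.55, -1.45 and -1.64 on the E1 arrays. Control arrays read -0.96, -1.48, -1.41, -1.42 and -1.48. The ELF arrays lay closer together than for any other member (SD 0.07) and all of them below every control array, whereas E1 and control overlapped. Control 1 stood above the other control arrays. The difference from control was -0.37 (SE 0.10) in ELF and -0.17 (SE 0.10) in E1, and neither passed the test with all arrays. In ELF it did when ELF 4 (-0.36) or control 5 (-0.41) was left out. Those fits called 4404 and 1612 genes higher and 719 and 498 lower, against 378 and 170 with all arrays.

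Abcb1a encodes P-glycoprotein, an efflux pump on the blood side of brain endothelial cells, measured at chr5:8785623-8785682 (plus strand). It read -4.00, -3.71, -3.27, -3.87 and -3.70 on the ELF arrays and -3.07, -3.30, -3.11, -3.45 and -3.23 on the E1 arrays. Control arrays read -1.95, -2.67, -2.38, -2.63 and -2.92. All ELF and all E1 arrays lay below all control arrays, and 4 of 5 ELF arrays lay below all E1 arrays. Abcb1a fell by 1.20 on the log2 scale in ELF (SE 0.17), or 56.5% on the linear scale, the largest difference among the 10 genes. The call was lost without control 2 (-1.24) or control 3 (-1.17), and with slide as a fixed block, when the difference was -0.47. Without control 2 or control 3, 0 of 26117 genes were called at all. In E1 the difference was -0.72 (SE 0.17) and did not pass the test. It did when control 5 was left out (-0.82), and with the replicate number as a block in the 10 arrays of E1 and control. Those fits called 920 and 2406 genes higher and 197 and 742 lower, against 35 and 14 with all arrays and no block.

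Abcg2 encodes a second efflux pump, the breast cancer resistance protein, with its probe across a splice site at chr6:58658701-58660383 (plus strand). It read -0.34, 0.32, -0.17, 0.06 and 0.01 on the ELF arrays and 0.14, -0.05, -0.05, 0.01 and 0.00 on the E1 arrays. Control arrays read 0.49, -0.14, 0.18, 0.23 and 0.04. The groups overlapped fully, with differences from control of -0.19 (SE 0.13) in ELF and -0.15 (SE 0.13) in E1, neither called. Without control 1 they were -0.10 and -0.07. The efflux pumps thus gave the largest and, of the transporters, the smallest difference between ELF and control.

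Slco1c1 encodes an organic anion transporter that carries thyroid hormone and is also known from choroid plexus and astrocytes. Its probe crosses a splice site at chr6:141615390-141616753 (plus strand). It read 0.74, 0.46, 0.16, 0.03 and 0.99 on the ELF arrays and 0.74, 1.09, 0.79, 1.05 and 0.73 on the E1 arrays. Control arrays read 1.47, 1.06, 1.32, 1.13 and 1.06. ELF did not overlap with control, but ELF 3 and ELF 4, both on slide 3, read far below the other ELF arrays, while E1 4 and E1 5 on the same slide read much like the other E1 arrays. Slco1c1 fell in ELF with a difference of -0.73 (SE 0.17), or 39.8% on the linear scale. Without ELF 3 the difference was -0.65 and no longer passed the test, in a fit that called 457 genes higher and 125 lower. ELF 3 was low in choroid plexus markers (Ttr -1.81), whereas ELF 4, the lowest array for Slco1c1, was not (Ttr 4.02). Any part of choroid plexus in the Slco1c1 values was not tested. The call was also lost without ELF 1 (-0.80), ELF 2 (-0.73) or any 1 of control 1 to 4 (-0.77 to -0.67), and without any single E1 array, since all arrays share 1 estimate of the spread. Each of the fits in the last sentence also called fewer genes in all than the fit of all arrays. In E1 the difference was -0.33 (SE 0.17), not called.

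Slco1a4 encodes another organic anion transporter of brain endothelium, measured at chr6:141858334-141858393 (minus strand). It read -1.21, -0.82, -1.74, -1.57 and -0.69 on the ELF arrays and -0.89, -1.03, -1.05, -1.05 and -1.25 on the E1 arrays. Control arrays read -0.18, -0.84, -0.65, -0.78 and -0.85. As for Slco1c1, ELF 3 and ELF 4 were lowest. All E1 arrays lay below all control arrays, though E1 1 and control 5 nearly met, and ELF overlapped with control. The differences from control were -0.54 (SE 0.19) in ELF and -0.39 (SE 0.19) in E1, neither called.

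Slc2a1 encodes the facilitative glucose transporter of brain endothelium and other brain cells, measured at chr4:118513698-118513757 (plus strand). It read 2.19, 2.77, 2.51, 2.37 and 2.06 on the ELF arrays and 2.45, 2.49, 2.36, 2.31 and 2.14 on the E1 arrays. Control arrays read 2.94, 2.75, 2.63, 2.55 and 2.24. All groups overlapped, with differences from control of -0.24 (SE 0.15) in ELF and -0.27 (SE 0.15) in E1, neither called.

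**Figure D1:**
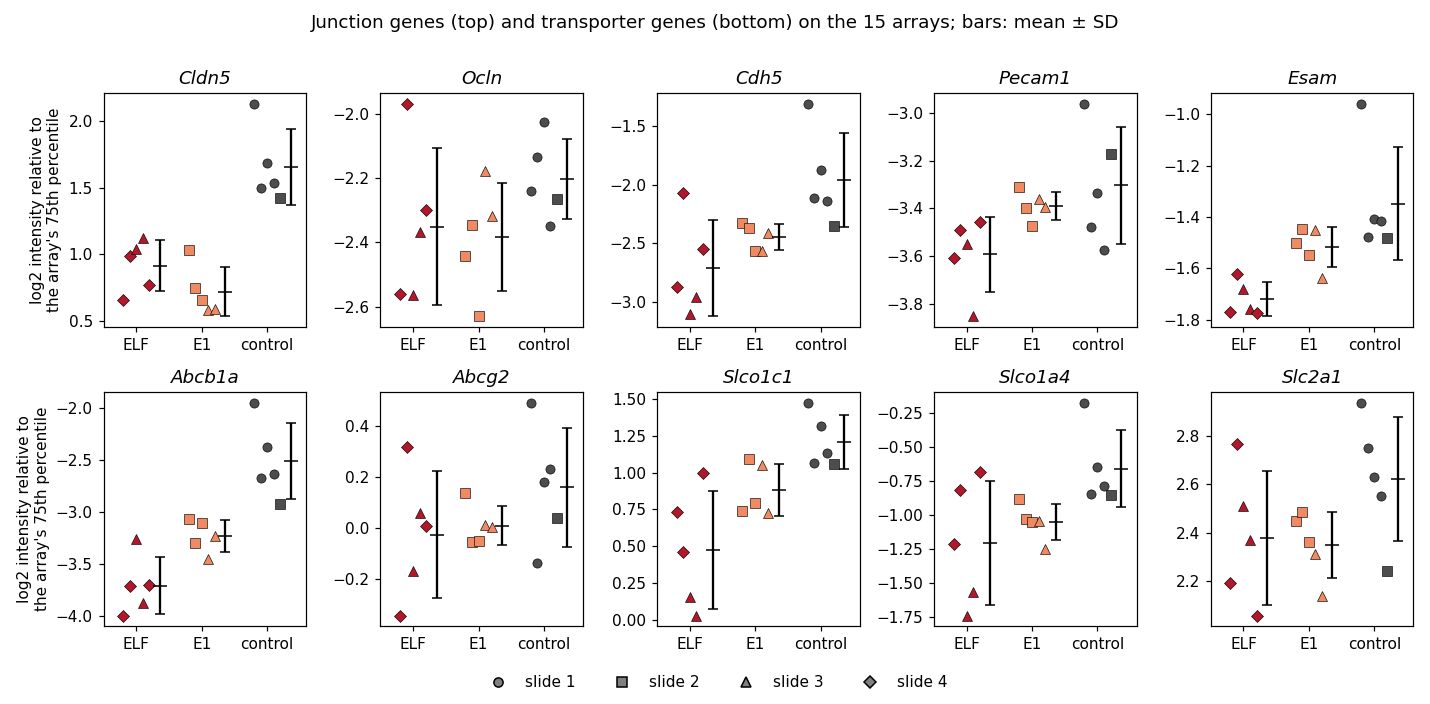
Log2 intensity relative to the array's 75th percentile for each of the 10 genes, in ELF, E1 and control mice; each point is 1 array, marker shapes give the slide, and bars give mean ± SD over 5 arrays. Cldn5 and Abcb1a show no overlap of either extinction group with control, Slco1c1 and Esam show none between ELF and control, and control 1 is the highest array in 9 of the 10 panels.

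Set side by side, all 10 differences between ELF and control were negative, from -1.20 to -0.15, with a median of -0.46, against a median of 0.10 and a share of 35.2% negative differences over all genes. Of the 10 members 3 were called lower and 0 higher. Over all genes 0.651% were called lower and 1.45% higher, 2.1% in all, and since the genes were chosen with this comparison in view nothing is read from these shares. Every ELF array lay below every control array for 4 members (Cldn5, Esam, Abcb1a and Slco1c1), against 2.23% of all genes. The junction genes had a median of -0.37 and the transporters one of -0.54. The median of all genes depended on the scaling, at 0.10 with the 75th percentile and -0.0021 with the array medians. Relative to the median of all genes, the members' differences were -0.25 (Ocln) to -1.30 (Abcb1a). Without control 1 the members' median was -0.35, and Abcb1a alone remained called. Over all genes 26 were then called higher and 10 lower.

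Between E1 and control all 10 differences were negative too, from -0.94 to -0.08, with a median of -0.30, against 0.04 and 41.5% negative over all genes. The comparison shares its control arrays with the one above. Only Cldn5 was called lower, and 0 members were called higher, against 0.0536% of all genes called lower and 0.134% called higher, 0.188% in all. All E1 arrays lay below all control arrays for 3 members (Cldn5, Abcb1a and Slco1a4), against 1.62% of all genes. Without control 1 the median was -0.23 and Cldn5 stayed called, while over all genes 9 were called higher and 6 lower. Deviations of same-numbered E1 and control arrays from their group means correlated by 0.14 to 0.30. The replicate number as a block gave 0 members called with all 15 arrays and 3 (Cldn5, Abcb1a and Slco1a4) with the 10 arrays of these groups. Over all genes the first of these fits called 6 higher and 6 lower, and the other called 2406 higher and 742 lower.

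ELF and E1 were set against each other in the comparison that asks whether the genes differed between late and early extinction. It shares all its arrays with the comparisons above. No member was called in the model without slide: adjusted p ranged from 0.420 to 0.968 (limma, Benjamini-Hochberg over 26117 genes), and 7 differences were negative and 3 positive, against 39.6% negative over all genes. Over all genes 2 were called, or 0.00766%, and 2517 had an unadjusted p under 0.05. Abcb1a had the largest difference, -0.48 (unadjusted 95% interval -0.85 to -0.11, adjusted p = 0.420), and 4 of 5 ELF arrays were below the lowest E1 array. Slco1c1 followed with -0.40 (-0.76 to -0.05, adjusted p = 0.475). Cldn5 was 0.20 higher in ELF (-0.11 to 0.50, adjusted p = 0.699), so its level in ELF was neither shown to differ from that in E1 nor shown to be the same. No member separated the groups without overlap, against 0.944% of all genes whose ELF arrays all lay lower. With slide as a fixed block Slco1c1 was called lower in ELF (-0.79), in a fit that called 699 genes higher and 4344 lower. Without the block the intervals of Ocln, Abcg2 and Slc2a1 lay between -0.31 and 0.34.

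**Figure D2:**
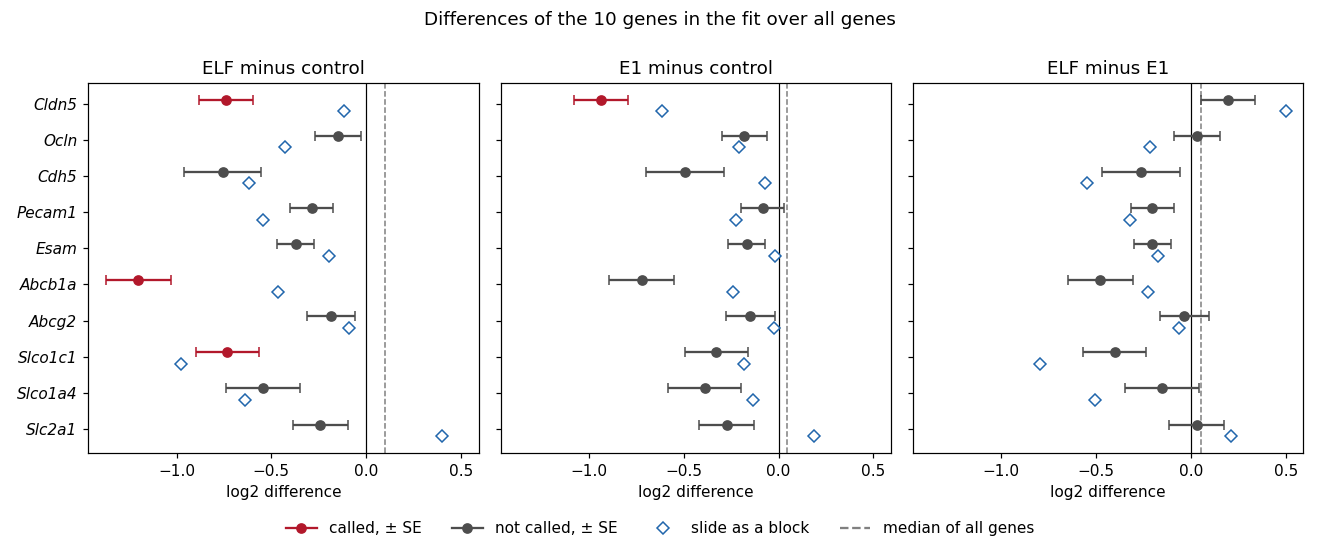
Log2 difference of each gene in ELF minus control, E1 minus control and ELF minus E1 (circles with SE bars, red where called), with the same difference when slide is a block in the model (open diamonds) and the median of all genes (dashed line). All 20 differences from control are negative without the block, and Slc2a1 turns positive with it.

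Slide touched these differences unevenly. In a model with slide as a fixed block the ELF and control arrays differed by -0.12 for Cldn5, -0.47 for Abcb1a and -0.98 for Slco1c1, and by 0.40 for Slc2a1, opposite in sign. The members' median was -0.45, close to that without the block, but the median of all genes was then -0.22. In that fit 0 members were called between ELF and control, while over all genes 23 were called higher and 62 lower. Within slide 2, where 3 E1 arrays can be set against the single control array 5, Cldn5 differed by -0.62, Abcb1a by -0.24 and Slc2a1 by 0.19, with a members' median of -0.16 against -0.04 over all genes. Within slide 3, with 2 ELF and 2 E1 arrays, Slco1c1 differed by -0.79 and Slco1a4 by -0.51, Cldn5 by 0.50, and the members' median was -0.22 against -0.18 over all genes. With slide as a random block 0 members were called in each comparison. Of all 26052 genes in that fit 0 were called too, so these counts say nothing particular to the members.

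Of the 10 genes 4 had a second probe. For Cdh5 the other probe differed by -0.75 (SE 0.19) between ELF and control and by -0.38 (SE 0.19) between E1 and control, near the -0.76 and -0.49 of the probe used. Its values were -4.77, -4.30, -4.53, -5.10 and -4.05 on the ELF arrays, -4.13, -4.25, -4.30, -4.21 and -3.97 on the E1 arrays and -3.21, -4.08, -3.73, -4.04 and -3.90 on the control arrays. Both Cdh5 probes were highest on control 1. The pair of Abcg2 probes reads different exons of the transcript. Their sequences are given to show which parts were measured, in lower case and as listed in the Feature Extraction output (mm7, plus strand):
Abcg2, chr6:58658701-58660383: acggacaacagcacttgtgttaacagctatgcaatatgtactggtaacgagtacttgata
Abcg2, chr6:58646466-58651396: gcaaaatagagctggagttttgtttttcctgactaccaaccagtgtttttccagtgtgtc
The Abcg2 probe printed first differed by -0.19 between ELF and control and by -0.15 between E1 and control, and the other by -0.05 (SE 0.12) and -0.10 (SE 0.12), and neither probe was called. For Ocln the other probe was dim, well above background on 10 of 15 arrays, and differed by -0.17 (SE 0.29) and -0.42 (SE 0.29). A second probe carrying the name Pecam1 was well above background on 2 arrays only and was not compared.

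**Figure D3:**
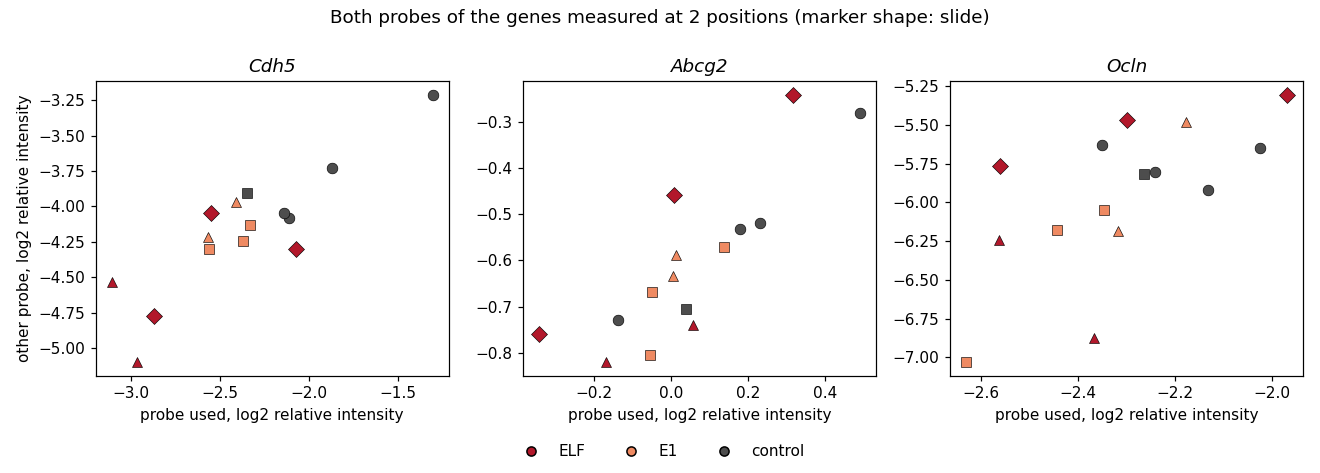
Log2 relative intensity of the other probe (vertical) against the probe used (horizontal) for Cdh5, Abcg2 and Ocln; each point is 1 array, coloured by group and shaped by slide. For Cdh5 control 1 is at the top of both axes and ELF 3, ELF 4 and ELF 1 are at the low end of both.

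The members tended to be high or low on the same arrays. When each gene was standardised over the 15 arrays and the 10 were averaged, control 1 had the highest mean (1.99) and ELF 1, ELF 4 and ELF 3 the lowest (-1.08, -0.99 and -0.92). ELF 2, at 0.25, was the one ELF array above 0 and lay near control 5 (0.28). All E1 arrays lay between -0.45 and 0.05. The 5 genes most like this average over the 15 arrays, by Pearson's r and as a description only, were Cd93 (0.967), Lsr (0.964), Scarf1 (0.963), Degs2 (0.958) and Gata2 (0.955). Lsr encodes angulin-1, a protein of junctions where 3 cells meet, and Cd93 an endothelial surface receptor.

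The remaining genes of the barrier were examined as 4 lists. Of 24 other junction genes 22 were measured, and without slide in the model 0 were called in any of the 3 comparisons. Their medians were -0.06 for ELF against control, -0.07 for E1 against control and -0.06 for ELF against E1. With slide as a fixed block these medians were -0.30, -0.08 and -0.13, against -0.22, -0.04 and -0.18 over all genes. The 2 brightest of these junction genes, Ctnnb1 and Ctnna1, differed by -0.02 and 0.04 between ELF and control. They encode catenins that tie cadherins to the cytoskeleton in most cell types. Among 30 other transporters 0 were called without slide in the model in the comparisons that include E1. Between ELF and control 2 were called lower, against 0.651% of all genes. They were Slc6a6, the taurine transporter, with a difference of -0.88 (SE 0.21), and Abcc1, an efflux pump, with -0.30 (SE 0.07). Neither was called between ELF and control without control 1 or with slide as a block. Over all genes 10 were called lower without control 1, 62 with the fixed block and 0 with the random block. The transporter list as a whole had a median of 0.03 between ELF and control and of 0.01 between E1 and control, or -0.10 and -0.01 with slide as a fixed block. Of 22 regulators of the barrier, such as the receptors and targets of endothelial Wnt signalling, 0 were called without slide in the model. Their medians were -0.20 in ELF and -0.07 in E1 against control. With slide as a fixed block both were 0.06, against -0.22 and -0.04 over all genes. Of 7 genes of vesicles and fenestrae 0 were called, with medians of 0.00 and -0.12, or -0.13 and -0.08 with the block. Between ELF and E1 the fixed block called 6 other junction genes lower and 1 higher, and 5 other transporters lower and 0 higher. Of the regulators it called 1 lower and 1 higher. Over all genes that fit called 4344 lower and 699 higher.

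Markers of endothelial cells outside the junction and transport lists are given as a description. Their list was written with earlier results of these data known. Of 26 such genes 25 were measured (Ly6c1 was below background), with a median of -0.52 between ELF and control, -0.32 between E1 and control and -0.09 between ELF and E1. The difference from control was negative for 19 of them in ELF and 23 in E1, against 35.2% and 41.5% of all genes. Between ELF and control 11 were called lower and 0 higher, against 0.651% and 1.45% of all genes. Those with the largest differences were Ptprb, an endothelial phosphatase (-1.66, SE 0.35), the VEGF receptors Flt1 (-1.14, SE 0.22) and Kdr (-0.99, SE 0.16), and Mmrn2, a matrix protein of vessels (-0.95, SE 0.16). Between E1 and control 2 were called lower, the transcription factor Sox18 (-1.11, SE 0.13) and Kdr (-0.87, SE 0.16), against 0.0536% of all genes. Without control 1 the count was 3 in ELF and 1 in E1, and with slide as a block it was 0 in both. Over all genes 10 and 6 were called lower without control 1, 62 and 3 with the fixed block, and 0 with the random block. The summed linear level of the list was 21.5 to 26.0 on the ELF arrays, 21.2 to 26.5 on the E1 arrays and 24.5 to 37.4 on the control arrays. Its brightest genes, Cd34 and Ramp2, differed by 0.16 and 0.03 between ELF and control. Whether the members' differences go with those of endothelial genes at large was not tested.

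Other cell types of the tissue are set beside these values. Of 15 mural cell genes 2 were called lower in ELF than in control, against 0.651% of all genes. These were Rgs5 (-0.65, SE 0.15) and Mcam (-0.33, SE 0.07), and the list median was -0.15. The mural sum was 19.9 to 27.1 on the ELF arrays, 21.7 to 27.3 on the E1 arrays and 21.2 to 24.5 on the control arrays. Of 12 astrocyte genes Acsbg1 was called higher in ELF than in control (0.35, SE 0.09), against 1.45% of all genes. The astrocyte list median was 0.14. Neither list had a call between ELF and control without control 1 or with slide as a block. Over all genes 26 were called higher and 10 lower without control 1. With the fixed block these counts were 23 and 62, and with the random block 0 genes were called. Choroid plexus genes had medians of -1.21 between ELF and control and -0.27 between E1 and control over the 14 of 16 measured, and 0 were called. Without ELF 3 the ELF median was -0.63. Their sum was 3.79 on ELF 3, 35.1 to 39.5 on the other ELF arrays, 36.8 to 62.8 on the E1 arrays and 46.2 to 70.8 on the control arrays. The neuronal list had a median of 0.02 between ELF and control and 0.09 between E1 and control, and microglia had medians of 0.21 and 0.13. Meningeal genes had medians of -0.08 and -0.24 and blood genes of -0.03 and -0.01, each with 0 called. With slide as a fixed block some of these medians changed sign, to -0.17 and -0.09 for microglia, -0.05 and -0.06 for neurons, 0.13 and 0.48 for blood and, between E1 and control, 0.10 for meninges. Over all genes the medians with the block were -0.22 and -0.04, against 0.10 and 0.04 without it. The part of these cell types in the members' differences was not tested.

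**Figure D4:**
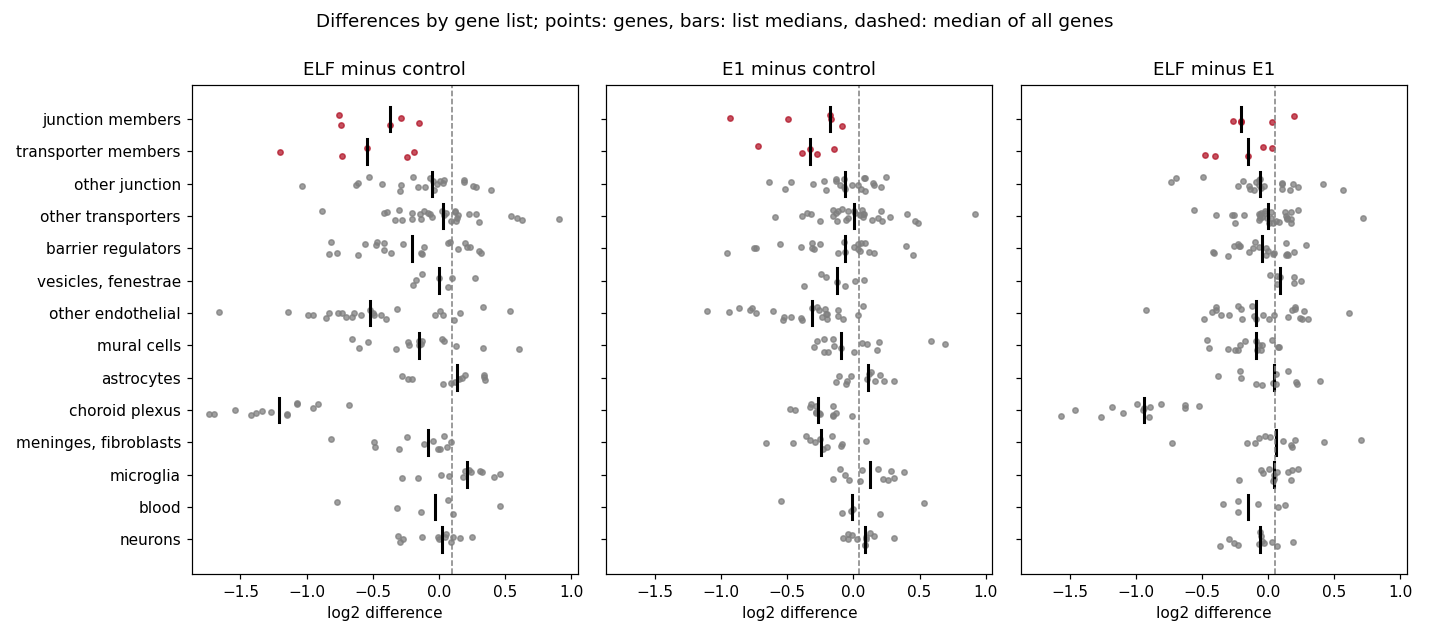
Log2 differences of the measured genes of each list in ELF minus control, E1 minus control and ELF minus E1; points are genes, black bars are list medians, the dashed line is the median of all genes, and the members are in red. The members and the other endothelial genes lie mostly left of the dashed line in the first 2 panels, while choroid plexus genes lie furthest left in ELF minus control and in ELF minus E1.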

How the data were processed

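Total hippocampal RNA of 15 mice was labelled with Cy3 and hybridised to 15 single-colour Agilent mouse arrays, 1 per mouse, per the labels' protocols. Per the file headers, Agilent Feature Extraction 9.5.3.1 gave a processed intensity for each of 45018 spots, background-subtracted within the array, and other columns that flag spots as well above background, saturated or outlying with 0 or 1. The deposited table of the authors' own values, used as an alternative, is on a log2 scale, with a median of 8.68 to 8.92 per array; its normalization, not given in the sources used here, is unknown. Limma and the Agilent software are the tools named in the submitters' processing notes.

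From the processed intensity, log2 values were set relative to each array's 75th percentile, taken without the 1639 control spots. Spots of a probe were averaged without outlying spots. Probes well above background on at least 5 of 15 arrays were kept (38458 of 41174). Each of 26117 genes was represented by its probe of highest mean. Groups were taken from the sample labels. All 15 arrays entered 1 linear model without covariates in limma 3.58.1 (R 4.3.3), with moderated two-sided tests. The fit with slide as a random block put the correlation between arrays of 1 slide at 0.47. The model without slide leaves this out, so its SEs, intervals and calls treat the arrays as independent. A gene was called where its p, adjusted after Benjamini and Hochberg over all genes, was under 0.05. The fit was tested on simulated data that held no slide effect. Signal over background limits dim genes, and few arrays limit the precision throughout.

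All 10 members are named, with every probe. From each other list up to 4 called genes of largest difference per comparison are named, and the 2 brightest where the list is described. The members, lists and tests were chosen with earlier results of these data known. Coordinates of probes are in mm7, per the file headers, and promoter sequences are from RefSeq, build GRCm38.p6.

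Slides were read from the array identifiers, and all were scanned on 1 day. Replicate numbers were checked for pairing by correlating the deviations of same-numbered arrays from their group means over all genes. Between E1 and control the 5 correlations were 0.17, 0.19, 0.14, 0.20 and 0.30. The same-numbered control array was the best match for E1 1, E1 4 and E1 5, but not for E1 2 and E1 3. Between ELF and control the correlations ran from -0.43 to 0.31. The numbers were tried as a block in alternative fits only, and whether they pair the arrays is not known. No label says what arrays of the same number share. Alternatives tried were the background correction, the normalization, the authors' deposited values, the filter on dim probes, the choice of probe, slide as a fixed or random block, the replicate block, fits of 2 groups only and leaving out each array.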

Additional observations from a re-analysis of the deposited data

Results flagged for a closer look

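In the control group Esam (Esam1 on the array) was flagged because control 1 read -0.96 while the other 4 control arrays lay between -1.48 and -1.41, a gap that takes up 0.858 of the group's range. This was 1 of 39 sets of 5 arrays examined, and chance alone flags about 1 set in 20. Without control 1 the difference of Esam was -0.28 between ELF and control and -0.07 between E1 and control.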

How the results depend on the processing

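The members' medians kept their sign under all alternatives run, whereas the number of members called did not hold. Between ELF and control 3 were called, against 6 with quantile normalization, 5 with a median shift, 7 with the authors' deposited values, 0 with slide as a fixed or as a random block, and 0 when the fit held only these 2 groups. Over all genes the fixed block called 23 higher and 62 lower, while the random block and the fit of 2 groups called 0. Leaving out single arrays gave 0 to 5 called: 0 without control 2 or control 3, 1 without ELF 1, control 1 or control 4, and 5 without ELF 4 or control 5. For the arrays just named the calls over all genes moved in the same direction. They were 0 without control 2 or control 3, and 88 higher and 49 lower without ELF 1. Without control 1 they were 26 and 10, without control 4 84 and 28, without ELF 4 4404 and 719, and without control 5 1612 and 498. This did not hold for every array. Without ELF 3, 2 members were called, and over all genes 457 higher and 125 lower. Without ELF 2, 3 members were called, and over all genes 106 higher and 103 lower. Leaving out control 1 and ELF 3 together, chosen after the data were seen, gave 1 member called. The replicate block gave 1 with all arrays and 0 with 2 groups, and over all genes 183 higher and 32 lower with all arrays and 0 with 2 groups. Same-numbered arrays correlated by -0.43 to 0.31 between ELF and control and by -0.40 to 0.17 between ELF and E1. Between E1 and control 1 was called, against 0 with slide as a fixed or as a random block, 0 with the replicate block and all arrays, and 3 with the replicate block and 2 groups, when 2406 genes were called higher and 742 lower. Over all genes the fixed block called 1 higher and 3 lower in this comparison, and the random block called 0. Leaving out single arrays gave 0 to 2: 0 without E1 3, E1 4, E1 5, control 2 or control 3, and 2 without control 5. Over all genes the fits with 0 members called 5 to 10 higher and 3 to 6 lower, and that without control 5 called 920 and 197. Between ELF and E1 0 were called, and 1 (Slco1c1, -0.79) with slide as a fixed block, when 699 genes were called higher and 4344 lower. Of 70 differences of members under 7 normalization and filter settings, 0 changed sign in ELF or E1 against control, and 8 did in ELF against E1 (Abcg2, Ocln and Slc2a1). Leaving out single arrays changed the sign of 0 of 150 values in ELF against control, 1 in E1 against control (Pecam1) and 7 in ELF against E1 (the same 3 genes). Over all genes 378 were called higher and 170 lower between ELF and control, against 1058 and 654 with quantile normalization, 715 and 489 with a median shift, 229 and 131 with normexp, and 782 and 806 with the authors' deposited values. Between E1 and control the counts were 35 and 14, against 353 and 76, 259 and 40, 20 and 9, and 190 and 54 in the same order. Apart from the smaller number of arrays or genes in some fits, the cause was not tested.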
